A study of Microtus ochrogaster with 51 samples.

Results

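The genes described here are 150 genes of the prairie vole nucleus accumbens whose group medians lay on the same side of the 2-week paired voles in voles separated from their partner and in voles paired for 6 weeks. They were chosen by these medians themselves, from 12277 genes that had a TPM above 0 in all 51 libraries and a mean TPM of at least 1, out of 23038 gene IDs in all. TPM is the read count of a gene per unit of its length, scaled so that the values of a library add up to the same total. For each gene 2 shifts were taken on the scale log2(TPM + 0.5): the median of separated voles minus the median of 2-week pairs, and the median of 6-week pairs minus the median of 2-week pairs. Both shifts had the same sign in 9596 genes, and 2980 of these had a 6-week shift of at least 0.25 in size. The 150 genes with the largest value of the smaller of their 2 shifts were kept: 30 were higher in both later groups (the higher genes) and 120 were lower in both (the lower genes). IDs numbered 1 to 37 and 4 other IDs were left out by the rule.

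The data are bulk polyadenylated RNA from the dissected nucleus accumbens of single voles (Microtus ochrogaster), with 1 library per animal. All animals had been housed with an opposite-sex mate, and no group of voles without a mate is in these data. The 2-week group was sampled after 2 weeks of pairing (9 females and 9 males in the rule). The separated group had 2 weeks of pairing followed by 4 weeks apart from the partner (12 females and 12 males). The 6-week group stayed with the partner for 6 weeks (3 females and 3 males). Separated and 6-week voles were therefore sampled at the same time after pairing. The labels give no age, genotype or drug treatment. They place the 2-week voles in cohorts 1 (4 libraries) and 2 (14), and the later voles in cohorts 3 (10 separated and 4 of 6 weeks) and 4 (14 separated and 2 of 6 weeks), so the time since pairing and the cohort cannot be told apart. The reads on genes, known for 42 libraries, were 20067514 to 37737711 per library (median 27487240).

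The nucleus accumbens belongs to the ventral striatum and is made up mostly of inhibitory medium spiny neurons, with interneurons, glia and vessel cells among them. It receives dopamine from the midbrain and is known for its part in reward. In prairie voles, a species that forms lasting bonds between mates, oxytocin and dopamine signalling in this region is known to take part in partner preference. The deposited tables name genes by Ensembl ID alone, and none of the IDs (0) could be matched to a symbol, so the products of these genes and the cell types that express them are not given here. In bulk tissue, fewer cells of a type and less RNA per cell cannot be told apart.

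The shifts of the higher genes were 0.62 to 2.38 in separated voles, with a median of 0.94, and 0.61 to 2.42 in 6-week pairs, with a median of 0.91. These medians correspond to 1.92-fold and 1.87-fold differences on this scale. The lower genes had shifts of -4.85 to -0.61 in separated voles (median -0.83) and of -5.04 to -0.60 in 6-week pairs (median -0.69). The medians over all 12277 genes were -0.10 and -0.09. These values are the ones that chose the genes, so no test is given for them, and both comparisons share the 2-week libraries. The last gene inside the threshold had shifts of -0.61 and -0.60, a smaller shift of 0.6047 in size and a mean TPM of 7.67. The first gene outside had shifts of -0.80 and -0.60, a smaller shift of 0.6041 in size and a mean TPM of 6.91. The higher genes were few but ranked early: 7 of the first 10 genes and 17 of the first 50 were higher genes.

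**Figure D1:**
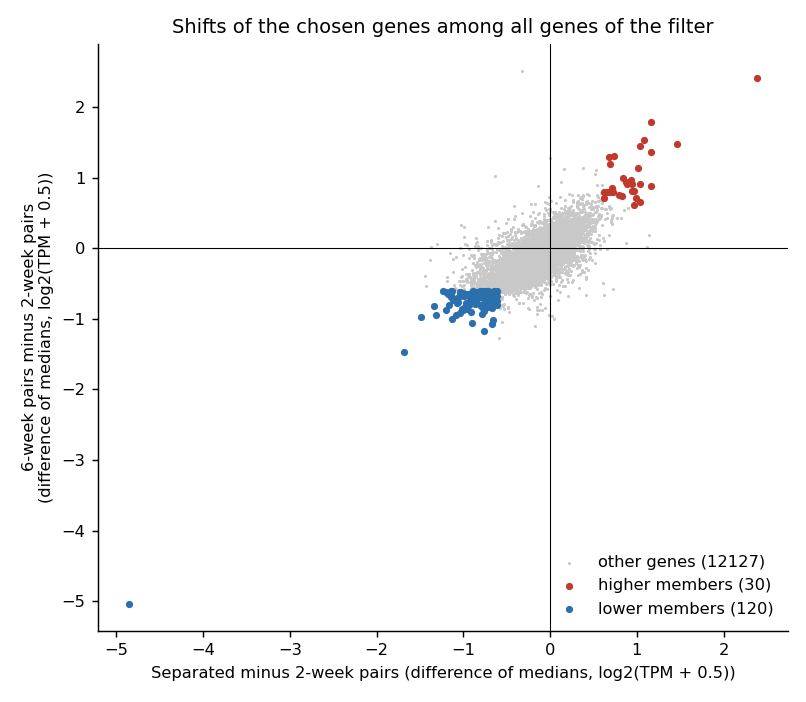
Shift of each gene in separated voles (horizontal axis) and in 6-week pairs (vertical axis), each as the difference of its group median from the median of 2-week pairs in log2(TPM + 0.5), with higher genes in red, lower genes in blue and the other 12127 genes in grey. Most of the 120 lower genes lie close to the threshold of 0.60, with 1 gene far out at -4.85 and -5.04, and the 30 higher genes reach 2.38 and 2.42.

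The size of a shift depended on the summary used. With group means in place of medians the higher genes had median shifts of 0.68 in separated voles and 0.79 in 6-week pairs, and all 30 kept their sign in both. The lower genes had -0.41 and -0.13 with means, and 25 of the 120 were above 0 in 6-week pairs. The medians of all genes were -0.08 and -0.01 with means. For most genes the spread between voles of one group was as large as the shift. The shift in separated voles was smaller than the larger of the 2 group SDs in 18 of 30 higher genes and in 96 of 120 lower genes. The SD within 2-week pairs had a median over genes of 0.76 for the higher genes and 1.06 for the lower genes, against 0.39 for all genes. Separated and 2-week libraries did not separate fully for any member (0 of 150), nor for any other gene (0% of 12277). The same holds for 6-week and 2-week libraries (0 of 150 members, 0% of 12277 genes).

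The 3 libraries that the rule set aside stood apart from the rest in their composition. They are the female and male of pair 15, both 2-week, and the male of pair 23, separated. The IDs numbered 1 to 37, which have no symbol either, took 11.5%, 12.6% and 9.87% of their TPM, against 30.02% to 58.7% in the other 2-week libraries and 39.4% to 60.9% in the other separated libraries. These 3 libraries did not enter the shifts, and their values are given beside the results below.

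The higher genes were summarised in each library by the median over the 30 genes of the deviation from the 2-week median. In 2-week pairs this library median was -0.28 at the lowest, 0.08 in the middle and 0.82 at the highest in females, and -0.59, 0.04 and 0.46 in males. In separated voles it was 0.34, 0.78 and 1.60 in females and 0.06, 0.92 and 1.40 in males. The 6-week females had 0.60, 0.86 and 1.43 and the 6-week males 0.13, 1.28 and 1.55. All 24 separated and all 6 6-week libraries lay above the 2-week median, and 12 of 24 and 4 of 6 lay above the highest 2-week library. The groups overlapped: both partners of pair 22 (6 weeks) and 12 separated voles lay within the range of the 2-week voles. In the libraries set aside the higher genes were at 0.73 and 0.50 in the 2-week female and male of pair 15, above 17 and 16 of the 18 other 2-week libraries. They were at 1.44 in the separated male of pair 23, above 23 of the 24 other separated libraries. All 3 libraries also had higher medians over all genes (0.34, 0.22 and 0.39) than most of their groups, and the part of this in the higher genes was not tested.

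Gene by gene, a median of 19.5 of 24 separated libraries lay above the 2-week median of a higher gene (16 to 24 over the 30 genes). In 10 of 30 higher genes all 6 6-week libraries lay above it. Over all 12277 genes, counted on the side of each gene's 6-week shift, the median was 15 of 24 separated libraries. All 6 6-week libraries lay on that side in 441 of them. The higher genes were chosen for later medians above this same 2-week median, so high counts were favoured by the choice. The higher genes moved together only weakly: within treatment groups the mean correlation between 2 of them was 0.20, against 0.31 between 2 genes of the whole set. By cohort, the median shift of separated voles against 2-week pairs was 1.08 for cohort 3 against 1, 0.80 for cohort 3 against 2, 0.84 for cohort 4 against 1 and 0.79 for cohort 4 against 2. Of the 30 genes, 29, 30, 28 and 27 were higher in these 4 comparisons, which share libraries with each other and with the rule. The 6-week pairs gave 0.77, 0.83, 1.08 and 0.92 in the same order, with 29, 29, 30 and 30 genes higher.

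**Figure D2:**
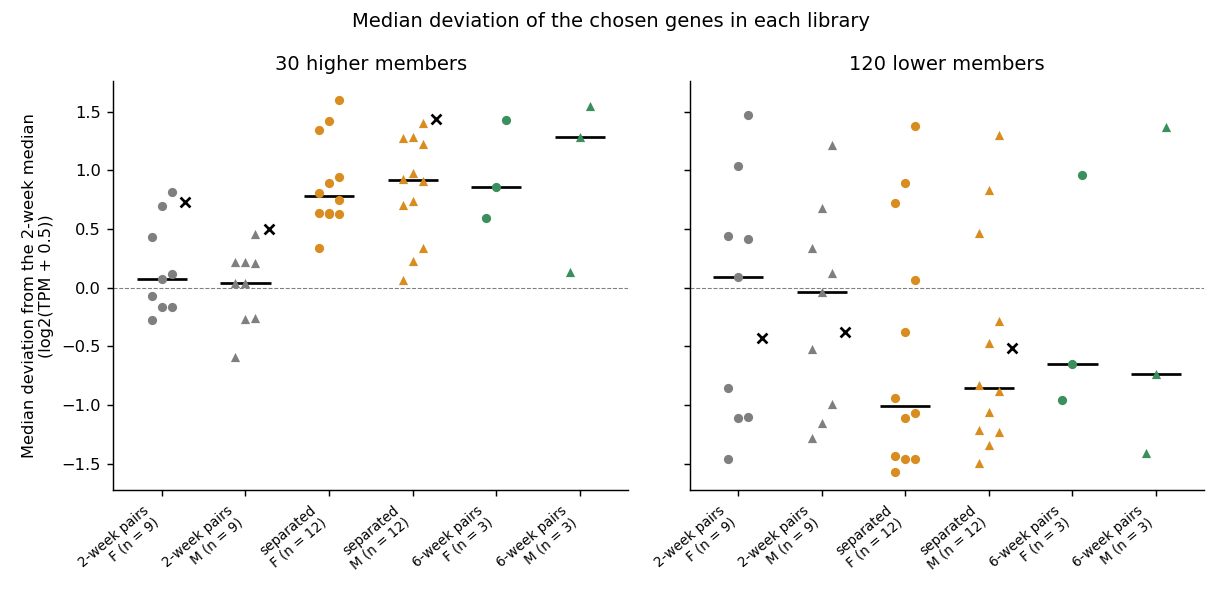
Median deviation from the 2-week median, in log2(TPM + 0.5), over the 30 higher genes (left) and the 120 lower genes (right) in each library, with a horizontal line at the group median, circles for females, triangles for males and crosses for the 3 libraries set aside by the rule. The higher genes are above 0 in all 24 separated and all 6 6-week libraries, while the lower genes range at least from -1.28 to 1.22 in 2-week and in separated voles of both sexes.

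Among higher genes whose mean TPM was 10 or more, ENSMOCG00000010773 had the largest shifts (2.38 and 2.42), and it occurred at 2 separate levels. Of the 48 libraries of the rule, 17 were at 2.24 to 8.82 TPM and the other 31 at 102 to 358 TPM. The libraries set aside had 348 and 636 TPM in the 2-week female and male of pair 15, and 14.96 TPM, between the levels, in the separated male of pair 23. Its TPM in 2-week females was 2.68 at the lowest, 6.11 in the middle and 277 at the highest, and in 2-week males 2.24, 116 and 358. In separated females it was 2.84, 171 and 308 TPM, and in separated males 2.63, 158 and 357 TPM. The 6-week females had 128, 173 and 179 TPM and the 6-week males 114, 161 and 168 TPM. The upper level was present in 9 of 18 2-week, 16 of 24 separated and 6 of 6 6-week libraries, so the shift of its median describes how many libraries were at the upper level. Among separated voles the upper level was found in 10 of 10 libraries of cohort 3 and 6 of 14 of cohort 4. Its shift in separated voles was -1.95 without cohort 3. Without cohort 1 the shifts were 0.56 in separated voles and 0.59 in 6-week pairs. Single voles of cohort 1 moved both shifts too: they were 4.12 and 4.15 without the female of pair 2, and 0.65 and 0.68 without the male of pair 2 or either partner of pair 8. Partners were at the same level in 17 of 24 pairs. No other member followed it with a correlation beyond 0.41 in size within groups.

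ENSMOCG00000013309, the second higher gene by this rule, had no such gap over the 48 libraries. Its TPM was 5.67 at the lowest, 8.76 in the middle and 25.99 at the highest in 2-week females, and 3.74, 9.43 and 19.01 in 2-week males. In separated females it was 14.8, 28.2 and 45.9 TPM, and in separated males 9.58, 24.5 and 45.2 TPM. In 6-week voles it was 7.95, 26.7 and 27.7 TPM in females and 7.86, 25.8 and 46.9 TPM in males. The low values of both sexes came from the 2 partners of pair 22, which lay among the 2-week voles. The values of separated and 2-week voles overlapped in both sexes. Among the libraries set aside it had 15.02 and 9.37 TPM in the 2-week voles and 56.2 TPM in the separated male, the last above every other library. The gene most like it in the whole set had a correlation of 0.80 with it within groups, and 4 members were beyond 0.7.

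The lower genes had a different spread over the libraries. Their library median in 2-week pairs was -1.46 at the lowest, 0.09 in the middle and 1.47 at the highest in females, and -1.28, -0.04 and 1.22 in males. In separated voles it was -1.57, -1.004 and 1.38 in females and -1.50, -0.86 and 1.30 in males. The 6-week females had -0.96, -0.65 and 0.96 and the 6-week males -1.41, -0.74 and 1.37. The groups thus covered nearly the same range and differed in how many libraries were at its lower end: 8 of 18 2-week, 14 of 24 separated and 4 of 6 6-week libraries were below -0.5. The 2 partners of pair 18, paired for 6 weeks, were at 0.96 and 1.37, and those of the other 6-week pairs (22 and 27) were between -1.41 and -0.65. The libraries set aside were at -0.42, -0.38 and -0.51, inside the range of their groups. Gene by gene, a median of 17 of 24 separated libraries lay below the 2-week median of a lower gene, against 15 over all genes on the side of their 6-week shift. In 2 of 120 lower genes all 6 6-week libraries lay below it, against 441 of all 12277 genes counted in the same way.

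The position of a library on the lower genes was nearly that of the library on all other genes. The first principal component of the 12127 genes that are not members, which took up 57.9% of their variance, had a correlation of 0.99 with the library median of the lower genes over 48 libraries (Spearman 0.99). Within groups it was 0.99 in 2-week pairs (n = 18), 0.99 in separated voles (n = 24) and 0.997 in 6-week pairs (n = 6). Without the 2 libraries farthest out on the component it was 0.99 over all. One by one, the lower genes had a median correlation of 0.95 with the component within groups, and 92 of 120 (76.7%) were above 0.7. Of the genes that are not members 43.1% were above 0.7 (median 0.61). For the higher genes the median was -0.00 and none (0 of 30) was above 0.7, and their library median had a correlation of -0.03 with the component (n = 48; Spearman -0.05). These correlations describe libraries that share their depth and their scaling, and carry no test.

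**Figure D3:**
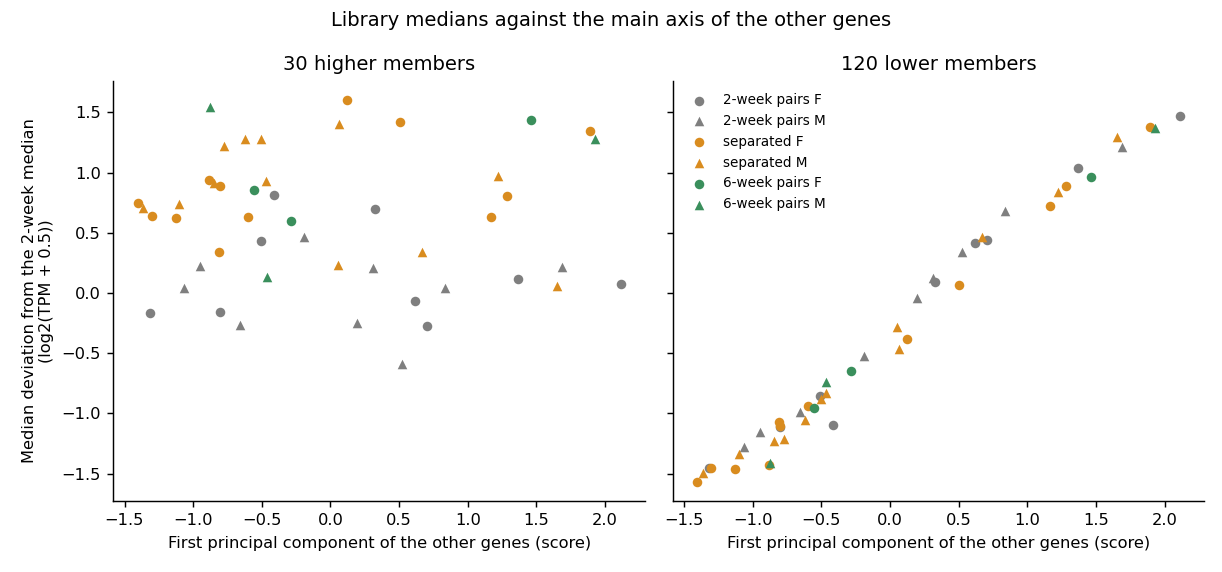
Library median of the 30 higher genes (left) and the 120 lower genes (right), in log2(TPM + 0.5), against the score of the library on the first principal component of the 12127 other genes, with colours for treatment groups and symbols for sexes. The lower genes lie along 1 line that runs through all groups (correlation 0.99), and the higher genes show no such line (-0.03).

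The number of reads moved with the lower genes as well. Their library median had a correlation of 0.91 with the reads per library in 2-week pairs (n = 18; Spearman 0.91; 0.88 without the 2 farthest libraries) and of 0.72 in separated voles (n = 24; Spearman 0.66; 0.59 without the 2 farthest). For the higher genes the same correlations were -0.15 (Spearman -0.04) and -0.05 (Spearman 0.10). The share of TPM in the IDs numbered 1 to 37 had a correlation of -0.38 with the lower genes in 2-week pairs (Spearman -0.39; -0.05 without the 2 farthest) and -0.73 in separated voles (Spearman -0.80; -0.70 without the 2 farthest). The part of reads, share and component in the shifts was not tested. Fits of group means with each of them as a term, chosen after the values had been seen, gave the following medians, beside -0.41 and -0.13 with no term for the lower genes. With the read total, known for 2-week and separated voles, the lower genes had -0.27 in separated voles, and 118 of 120 were below 0. With the share they had -0.10 in separated voles and 0.11 in 6-week pairs, and with the component -0.08 and -0.18. The medians of all 12277 genes in these fits were -0.05 with the read total, 0.04 and 0.09 with the share, and -0.004 and -0.02 with the component. The higher genes had 0.66 in separated voles with the read total, 0.77 and 0.82 with the share, and 0.68 and 0.78 with the component.

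Partners were close to each other on the lower genes. The library median of these genes nearly followed the component of the other 12127 genes (correlation 0.99), so this closeness is not particular to them. Over 24 complete pairs the library medians of the female and the male had a correlation of 0.94 (Spearman 0.91; 0.93 without the 2 farthest pairs). Within groups it was 0.94 in 2-week pairs (n = 9, Spearman 0.93). In separated voles, whose partners had spent 4 weeks apart, it was 0.94 (n = 12, Spearman 0.89). Within cohort 2 it was 0.97 (n = 7), and within cohort 4 0.91 (n = 8) but 0.13 without the 2 farthest pairs, on which it rests. Partners differed by 0.29 on average (at most 0.78), and a female and a male of the same treatment and cohort that were not partners by 1.15 on average. Both partners were on the same side of the 2-week median in 22 of 24 pairs. For the higher genes partners differed by 0.49 on average and non-partners by 0.47. Over all 24 pairs the correlation between partners was 0.34 (Spearman 0.39, 0.30 without the 2 farthest pairs), and 19 of 24 pairs were on the same side. These values pool groups that the choice of genes set apart. Within groups the correlation was -0.48 in 2-week pairs (n = 9, Spearman -0.32, 0.48 without the 2 farthest pairs) and -0.54 in separated voles (n = 12, Spearman -0.44, -0.64 without the 2 farthest). The labels do not say whether partners were dissected or sequenced together, and the part of such handling was not tested.

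**Figure D4:**
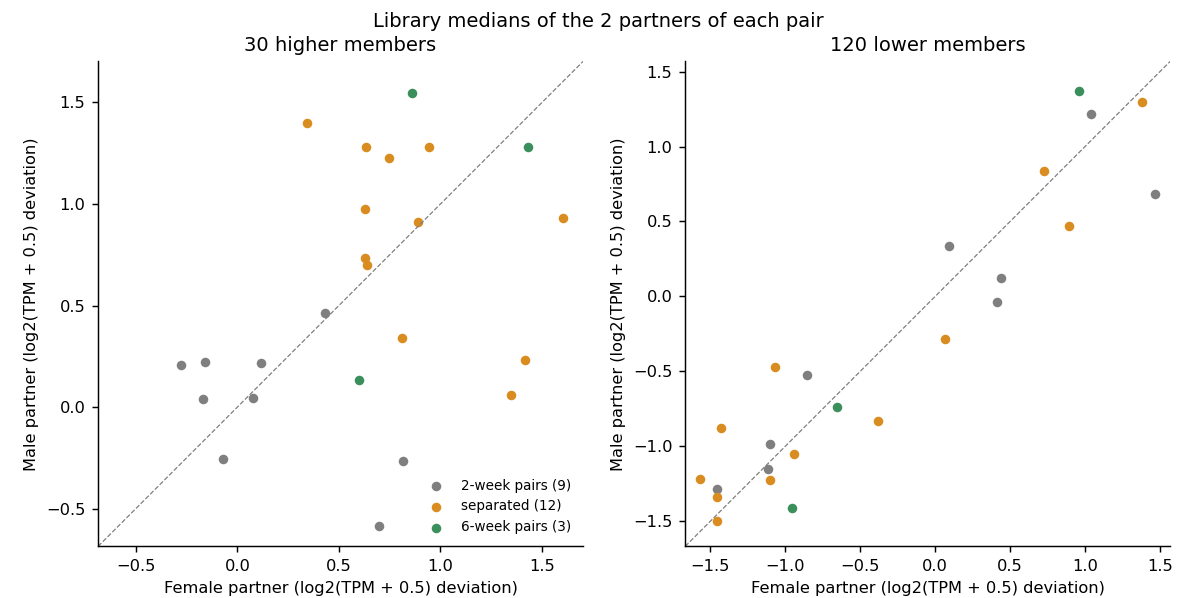
Library median of the male against that of the female of each of 24 pairs, in log2(TPM + 0.5), for the 30 higher genes (left) and the 120 lower genes (right), with the dashed line marking equal values. On the lower genes the pairs lie along the line, with a mean difference of 0.29, and on the higher genes they scatter around it, with a mean difference of 0.49.

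ENSMOCG00000005592, first of the 150 genes, had the largest shifts among the lower genes (-4.85 and -5.04) and also occurred at 2 levels. Of the 48 libraries of the rule, 25 were at 6.05 to 15.6 TPM and 23 at 383 to 538 TPM. The libraries set aside were outside both ranges, with 30.7 and 1369 TPM in the 2-week female and male of pair 15 and 34.3 TPM in the separated male of pair 23. Its TPM was 7.68 at the lowest, 401 in the middle and 516 at the highest in 2-week females, and 7.45, 419 and 512 in 2-week males. In separated females it was 7.18, 199 and 534 TPM, and in separated males 6.05, 13.4 and 538 TPM. In 6-week voles it was 9.05, 11.3 and 474 TPM in females and 6.49, 13.2 and 433 TPM in males. The upper level was found in 11 of 18 2-week, 10 of 24 separated and 2 of 6 6-week libraries. With about equal numbers at each level, a median moves from one level to the other when a few libraries change side. The difference of group means was -0.96 in separated voles and -1.49 in 6-week pairs. All 4 libraries of cohort 1 were at the lower level (0 of 4 at the upper), against 11 of 14 at the upper level in cohort 2, and without cohort 2 the shifts were 0.69 and 0.50. Partners were at the same level in 15 of 24 pairs.

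ENSMOCG00000016063 was the second lower gene by the same rule. Its TPM in 2-week females was 80.5 at the lowest, 243 in the middle and 409 at the highest, and in separated females 15.8, 50.6 and 85.0. In 2-week males it was 54.7, 107 and 545 TPM, and in separated males 36.3, 65.4 and 131 TPM. The 6-week females had 53.9, 263 and 302 TPM and the 6-week males 37.8, 53.3 and 77.6 TPM. The values of separated and 2-week voles overlapped in both sexes, more widely in males than in females. The highest 2-week male (pair 11) lay far above the next at 128 TPM. In 6-week voles the shift of this gene was 0.11 in females alone, and 0.14 in both sexes without cohort 4. Among the libraries set aside it had 197 and 245 TPM in the 2-week voles and 54.9 TPM in the separated male, inside the range of their groups. The gene most like it in the whole set, with a correlation of 0.82 within groups, was itself a member.

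**Figure D5:**
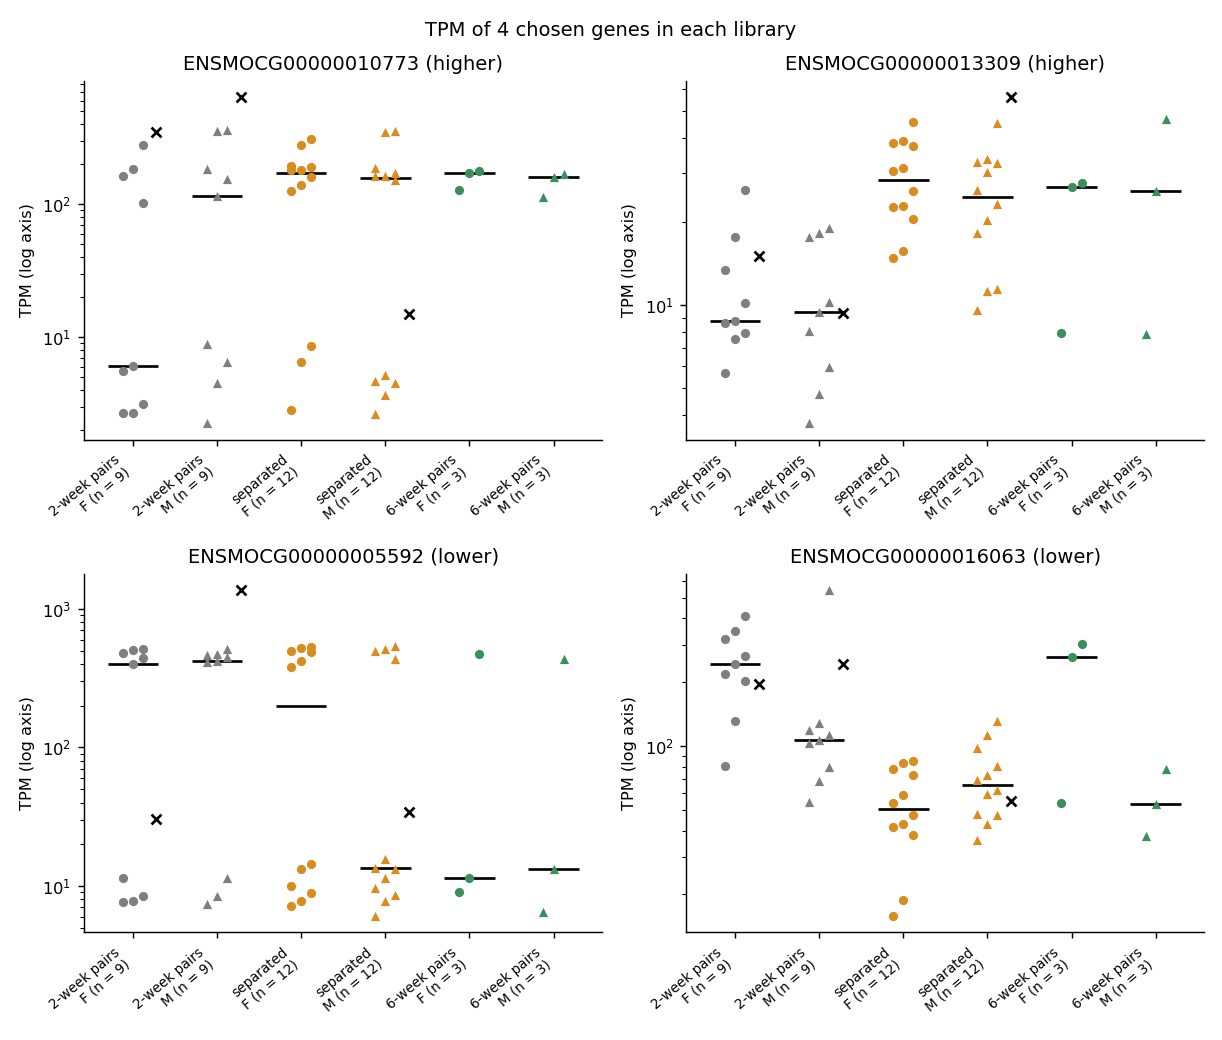
TPM on a log axis of the 2 higher and the 2 lower genes with the largest shifts and mean TPM values of 10 or more, in each library by treatment group and sex, with a line at the group median and crosses for the 3 libraries set aside by the rule. ENSMOCG00000010773 and ENSMOCG00000005592 occur at 2 levels in most groups of the 48 libraries, with crosses at 14.96, 30.7 and 34.3 TPM between them. ENSMOCG00000016063 has 1 male far above the other 2-week males, at 545 TPM, and both ENSMOCG00000013309 and ENSMOCG00000016063 are spread widely in 6-week voles.

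Such steps were found in few members, but in a larger share of them than of all genes. A gap of at least 1 on the log2 scale, with at least 5 libraries on each side, was found in 1 of 30 higher genes (3.33%) and 3 of 120 lower genes (2.5%). It was found in 13 of the 12277 genes (0.106%). The genes at ranks 1, 2 and 3 all had such a gap (4.58, 3.47 and 1.84, the last in ENSMOCG00000007706). The rule used medians, which can move far in such genes when a few libraries change side, so their high ranks were favoured by the choice. Without the 4 members that had such a gap, the library medians of the 6-week voles were 0.13 to 1.48 for the higher genes and -1.41 to 1.39 for the lower genes.

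Sex was not part of the rule, so differences between the sexes within a treatment could be tested. No member passed a test of females against males. In 2-week pairs limma called 0 members at an adjusted p of 0.05, against 1 of 13075 genes (0.00765%), and 1 member and 239 genes had an unadjusted p under 0.05. In separated voles limma called 0 members, against 1 of 13075 genes (0.00765%), and 1 member and 106 genes had an unadjusted p under 0.05. The median difference of males minus females was -0.15 over the higher genes and -0.07 over the lower genes in 2-week pairs, and -0.10 and 0.03 in separated voles. With edgeR on the recovered reads 0 members were called in either group, against 4 and 3 of 14151 genes. An unadjusted p under 0.05 was reached there by 2 and 3 members and by 235 and 218 genes. These p-values treat each animal as a replicate, although partners had lived together.

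No member passed a test of whether the sexes differed in their shift. For separation the difference of the shift between males and females was called in 0 members with limma (0% of 13075 genes called). An unadjusted p under 0.05 was reached by 4 members, all of them lower genes, and by 149 genes. With edgeR 0 members and 1 of 14151 genes were called, and 5 members and 243 genes had an unadjusted p under 0.05. ENSMOCG00000016063 was among the 4 with limma: the shift of its group mean was 1.46 ± 0.47 (SE) less negative in males than in females, with an unadjusted p of 0.00329 and a limma adjusted p of 1.00. The log2 difference of males minus females of this gene in 2-week pairs was -0.97 ± 0.36 (SE; unadjusted p = 0.00896, limma adjusted p = 1.00). For 6 weeks of pairing limma called 0 members (0% of 13075 genes called), with 0 members and 109 genes under an unadjusted p of 0.05. That comparison rests on 3 animals a sex, and the standard error of a difference had a median of 0.83 over the higher genes and 0.98 over the lower genes. As a description, the median shift of the higher genes in separated voles was 0.82 in females and 1.04 in males, and in 6-week pairs 0.73 and 1.20. The lower genes had -1.03 in females and -0.69 in males after separation, and -0.74 and -0.72 in 6-week pairs.

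Cohorts of one treatment were compared next, since the cohort cannot be told apart from the time since pairing. These comparisons use the libraries whose medians chose the genes: a gene with high values in cohort 1 has a higher 2-week median and is favoured as a lower gene. The differences between cohorts are therefore given as a description, and their direction over the lower genes is no independent result. Without cohort 1 the lower genes had a median shift of -0.36 in separated voles, and 31 of 120 were found again. In 2-week pairs cohort 2 was below cohort 1 in 106 of 120 lower genes, with a median log2 difference of group means of -1.02 (sex as a term, 14 against 4 libraries). Between separated and 2-week voles the same median of group means was -0.41. None passed (0 members called with limma, 0% of 13075 genes called), while 51 lower and 3 higher genes had an unadjusted p under 0.05, as did 1241 genes (9.49%). With edgeR on the recovered reads 0 members were called, and 16 of 150 had an unadjusted p under 0.05, close to the share of all genes (1516 of 14090, 10.8%). The limma count rests in part on single voles of cohort 1: without the female of pair 2 it was 2 lower and 4 higher genes, and the median of the lower genes was -0.71. Without the male of pair 2 the count was 12 lower genes and 1 higher gene, and without the male of pair 8 it was 79 lower and 5 higher genes. Over all genes the counts of these fits moved too: in the same order they were 188 (1.44%), 902 (6.90%) and 2156 (16.5%). The median difference of the higher genes between these cohorts was 0.25. In separated voles, cohort 4 minus cohort 3 gave medians of -0.15 over the lower genes and -0.07 over the higher genes. There limma called 0 members (0% of 13075 genes called), with 5 members and 211 genes under an unadjusted p of 0.05. With edgeR 0 members and 0 of 14164 genes were called, and 5 members and 388 genes were under that p. ENSMOCG00000010773 had the largest of these differences among the members (-3.12 ± 0.80, SE; unadjusted p = 0.000656, limma adjusted p = 1.00) and is one of the genes with 2 levels.

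The shift of the lower genes varied with the cohorts compared. Separated voles of cohort 3 were lower by a median of -1.22 against cohort 1 and of -0.13 against cohort 2, with 117 and 81 of 120 genes lower. Separated voles of cohort 4 gave -1.46 and -0.43, with 117 and 114 genes lower. The 6-week voles of cohort 3 gave -0.42 against cohort 1 and 0.68 against cohort 2, with 111 and 28 genes lower, and those of cohort 4 gave -1.72 and -0.64, with 117 and 118 genes lower. Without cohort 4 the median shift of the lower genes in 6-week pairs was 0.13. The 6-week value of cohort 3 comes from pairs 18 and 22 and that of cohort 4 from pair 27 alone.

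Separated and 6-week voles share cohorts 3 and 4 and the time since pairing. The rule chose genes on which both were shifted the same way from the 2-week voles, so a likeness between them was favoured. The 6-week voles of cohort 4 are the 2 partners of pair 27 alone. In cohort 3 separated minus 6-week voles gave a median of 0.04 over the higher genes, with 16 of 30 above 0, and in cohort 4 -0.22, with 5 of 30 above 0. Over the lower genes the same difference was -0.80 in cohort 3 and 0.21 in cohort 4, opposite in sign, with 9 and 104 of 120 genes above 0. The shifts that chose the genes enter these differences, so they carry no test.

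The contrasts used by the rule are given with their calls as a description only. Between separated and 2-week voles limma, which compares group means, called 60 of 13075 genes (0.459%), 12 members among them (3 higher and 9 lower genes). When partners were blocked by their pair, limma called 3 genes, of which 1, ENSMOCG00000016063, was a member. That gene had a difference of group means of -1.50 ± 0.24 (SE), and ENSMOCG00000013309 one of 1.26 ± 0.22 (SE). For ENSMOCG00000010773 and ENSMOCG00000005592 it was 0.93 ± 0.77 and -0.96 ± 0.86 (SE). Between 6-week and 2-week voles limma called no gene (0% of 13075) and 0 members. An unadjusted p under 0.05 was reached there by 312 genes and by 16 higher and 3 lower genes, and edgeR could not be run because read counts were not recovered for the 6-week libraries.

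Abundance and length were then compared, of which the rule had used only a minimum abundance. The higher genes were of lower abundance: their mean TPM was 2.02 to 198 with a median of 7.86, and 18 of 30 were under 10 TPM, against 4899 of all 12277 genes (39.9%). The lower genes had mean TPM values of 1.12 to 452 with a median of 13.2, and 48 of 120 were under 10 TPM. The effective length that links both deposited tables, relative to the median gene, was 0.667 for the higher genes, 0.874 for the lower genes and 1.00 for all genes (medians). It shifted by at most 0.31 in size (log2) between groups for any member. In the table of normalized counts, which is scaled in another way and holds the same 18 2-week and 24 separated voles, the median shift in separated voles was 1.11 over the higher genes and -0.66 over the lower genes. All 30 and all 120 kept their sign there, and the median of all genes was -0.00 rather than -0.10.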

How the data were processed

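The deposited TPM table (51 libraries) was used for the choice of genes and for the main tests. The authors' normalized table (42 libraries, no 6-week voles) holds a signal in which the reads of every gene were scaled by one factor per library. Its values were whole multiples of 1 step per library within 0.01 of a read (100%), and reads were taken from these steps. In 1 library the step is so close to 1 that it cannot be told from rounding, and its read total is less certain. DESeq2 and DESeq are named, with no version, per the submitters' processing notes. Per the labels, libraries were made from polyadenylated RNA. No aligner, genome build or annotation release is given in the sources used here.

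None of the 23038 IDs (0) matched the 26397 genes of the reference table (MicOch1.0), so cell type markers and gene lists could not be used and no sequence is printed. Members and lists were chosen with earlier results of these data known. Named genes are the 2 higher and the 2 lower members with the largest smaller shift and a mean TPM of at least 10. All calls are Benjamini-Hochberg adjusted at 0.05. For fits on TPM this was over all genes whose mean TPM was 1 or more. Fits with edgeR and on the normalized table used a minimum of the mean normalized count instead (14151 genes, or 14090 and 14164 in the edgeR cohort fits). Tests used limma 3.58.1 (R 4.3.3; eBayes with trend and robust options) on log2(TPM + 0.5), with edgeR 4.0.16 on the recovered reads as an alternative. Fold changes on this scale understate the change of low genes. The model code was tested on simulated data. Library medians, principal components and medians were computed with numpy 2.4.6 and pandas 2.3.3.

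Libraries were grouped by the treatment and sex labels, and the pair label joined partners. The labels and the table headers differ on which of 2 females (2-week) the normalized table holds; the headers were used. Alternatives were other pseudocounts, filters, scalings, weights, covariates, a pair block and left-out libraries or cohorts.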

Additional observations from a re-analysis of the deposited data

Results flagged for a closer look

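In 18 groups of 4 to 10 libraries, 1 value stood far from the others for its group size: the 2-week male of pair 11 had 545 TPM of ENSMOCG00000016063, while the other 8 males had 54.7 to 128 TPM (96.7 ± 25.9, SD, n = 8). The gap to the next male was 0.851 of the range of the group. The separated voles, with 12 libraries per sex, form larger groups and were not screened. Chance alone would single out about 1 in 20 such groups if values were normally distributed, which was not checked for these TPM values.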

How the results depend on the processing

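The median shifts of the higher genes stayed above 0 under every setting run (0.66 to 1.20). Each setting used the same gene list and largely the same libraries that chose it, so a kept sign was favoured by the choice. The lower genes stayed below 0 in separated voles (-1.39 to -0.08), but in 6-week pairs they had 0.13 without cohort 4 and 0.11 with the share of the first 37 IDs as a covariate added after the values were seen. The medians of all genes of the filter in 6-week pairs were 0.03 and 0.09 in these settings. Single genes turned sign: ENSMOCG00000005592 to 0.69 and 0.50 without cohort 2, ENSMOCG00000010773 to -1.95 in separated voles without cohort 3, and ENSMOCG00000016063 in 6-week pairs to 0.14 without cohort 4 and 0.11 in females alone. When the rule was applied again, 100 to 118 of the 150 genes were found without 1 library of cohort 1 or of the 6-week pairs. It found 51 with group means, 93 with the 3 libraries added, 77 with median-of-ratios scaling, 78 with TPM rescaled without the first 37 IDs, 60 in females, 65 in males, and 47 with group means and the component of the other genes as a covariate. Without cohorts 1, 2, 3 and 4 in turn it found 59, 41, 61 and 39. With group means 25 of 30 higher and 26 of 120 lower genes were found again. Without cohorts 1, 2, 3 and 4 in turn, 28, 5, 8 and 25 higher genes and 31, 36, 53 and 14 lower genes were found. In females 9 higher and 51 lower genes were found, and in males 21 and 44. The cause of these differences was not tested.

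Of the 6 fits within or between sexes and cohorts, only that of cohort in 2-week pairs, whose libraries chose the genes, changed its 0 calls. Array weights called 1 member (ENSMOCG00000005592) among 76 of 13075 genes, and the first principal component of the residuals as a covariate called 91 among 3001 of 13075. That component is taken from the residuals, which by construction lowers the residual spread. The contrast of separated against 2-week voles chose the genes, so members among its calls were favoured by the choice under every setting. Its calls are given as a description only. There limma called 12 members among 60 of 13075 genes. The normalized table gave 26 members among 465 of 14151 genes and edgeR 28 among 492 of 14151. Median-of-ratios scaling gave 24 among 354 of 13075, array weights 112 among 3531 and that component 115 among 2607. With the pair as a replicate block 1 was called among 3 genes, and the block changed no other call (0 members in each of the 6 tests). Deviations of partners correlated above 0.1 over genes in 20 of 24 pairs (lowest -0.32, median 0.41). Depth in 6-week libraries is unknown, and with 6 such libraries a test of single genes reaches few differences.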
